A study of Rattus norvegicus with 18 samples.

Results

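The tumour necrosis factor (TNF) ligand and receptor superfamilies were followed in primary rat glia exposed to Aβ fibrils. Members were taken by gene symbol, as every symbol of the deposited tables that begins with Tnfsf or Tnfrsf, together with Tnf, Lta, Ltb, Ltbr, Cd40, Cd40lg, Fas, Faslg, Cd27, Cd70, Ngfr, the adaptors Traf1, Traf2, Traf3 and Traf6, and Tradd. This gave 43 of the 17930 symbols, of which 16 encode ligands, 6 receptors with a death domain, 16 receptors without one and 5 adaptors. Eda2r and Traf5 were not analysed here. The RNA came from cortical astrocytes and microglia of Sprague-Dawley rat pups at postnatal day 2, labelled WT. Microglia were shaken off confluent mixed glia and the astrocytes were the layer that stayed attached, both were placed in serum-free medium, and cells of each type were left untreated or received Aβ42 or Aβ40 fibrils at 25 µM for 24 h. Each of the 6 groups had 3 libraries, and since nothing in the labels gives separate animals or cultures, the p-values measure the spread between these libraries alone.

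Ligands of this superfamily are trimeric proteins, mostly anchored in the membrane of the sending cell, and Tnf can be shed from it by the protease Adam17. Their receptors have no enzymatic activity. Receptors with a death domain, such as Tnfrsf1a and Fas, can recruit Tradd or Fadd and lead to NF-κB activity or to caspase activation, whereas Tnfrsf1b, Cd40, Ltbr and most others bind Traf proteins directly. In the brain, Tnf is made mainly by microglia, and Tnf is one of the signals that turn astrocytes reactive.

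The 18 libraries held 3674043 to 19013919 counts on genes in astrocytes and 2271834 to 22274367 in microglia, so that 3 counts, taken as the detection limit, stood for 0.160 to 0.835 CPM (CPM being the count of a gene relative to its library total after scaling for composition) in astrocytes and 0.130 to 1.38 CPM in microglia. Of the members, 26 of 43 in astrocytes and 29 of 42 in microglia passed the filter on low counts and were tested. Among the others, 11 were untested in both cell types. None of the untested members exceeded 2.23 CPM in an astrocyte library or 2.70 CPM in a microglia library. Tnfsf11, the ligand of Tnfrsf11a, had no count in any library, and Cd40lg and Cd27 had none in microglia and at most 1 and 4 counts in an astrocyte library. Some of the untested members would have been tested had they been high in 1 group alone, so the counts below describe the tested members and not the superfamilies as a whole.

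A few libraries stood apart from their group. Astrocyte control replicate 2 had 33.3 CPM of Ltbr against 139 and 145 CPM in the other controls, 29.7 CPM of Tnfrsf12a against 94.1 and 105 CPM, and no count of Tnf. Microglia Aβ42 replicate 1 had 2613723 counts, against 22274367 and 17687416 in the other Aβ42 libraries, and lay nearer to the Aβ40 mean than to the mean of those 2 libraries for 18 of 29 tested members and for 70.4% of all tested genes. Main results that turn on either library are given with and without it below or in the closing section. The cultures held the markers of their label, with Gfap at 2839 CPM in untreated astrocytes and 36.9 CPM in untreated microglia, and Csf1r at 2494 CPM in untreated microglia and 124 CPM in untreated astrocytes. The summed level of 10 microglial markers in the astrocyte cultures fell from 382–439 CPM untreated to 162–175 CPM with Aβ42 and 140–154 CPM with Aβ40 fibrils, and in microglia from 7889–8954 CPM to 2007–3226 CPM and 2809–3455 CPM. The sum of 8 astrocyte markers in the astrocyte cultures fell from 8517–10216 CPM to 5499–5766 CPM and 6086–6416 CPM. Not all of them fell, since 5 were called lower and 2 higher with Aβ42, and 5 lower and 3 higher with Aβ40. Aldh1l1 rose from a mean of 38.7 CPM to 123 and 106 CPM. Markers of T and B lymphocytes, in which many of the near-silent members are known to act, summed to at most 0.278 CPM in astrocytes and 9.76 CPM in microglia, with Cd3e and Cd3g at 0.

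The ligands that the results turn on, Lta, Tnf and Ltb, are consecutive protein-coding genes on chromosome 20 of the rat. RefSeq promoter sequences, from 250 bases before to 50 bases after the start of the gene, were found for 30 of the 43 members, and those of these genes and of Fas are shown 5′ to 3′ on the strand of the gene because these are ligands that rose together beside a death receptor that rose in both cell types. Capitals mark matches to the κB consensus, the 10-base site bound by NF-κB dimers, searched on both strands, where matches can overlap each other.
Lta, chr20:3623277-3623576, plus strand, GRCr8: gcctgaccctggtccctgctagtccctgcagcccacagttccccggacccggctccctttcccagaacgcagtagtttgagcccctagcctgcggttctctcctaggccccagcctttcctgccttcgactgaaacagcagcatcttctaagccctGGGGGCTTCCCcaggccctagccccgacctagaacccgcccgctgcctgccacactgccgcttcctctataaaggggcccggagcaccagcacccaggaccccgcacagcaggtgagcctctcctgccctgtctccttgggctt
Tnf, chr20:3626435-3626734, plus strand, GRCr8: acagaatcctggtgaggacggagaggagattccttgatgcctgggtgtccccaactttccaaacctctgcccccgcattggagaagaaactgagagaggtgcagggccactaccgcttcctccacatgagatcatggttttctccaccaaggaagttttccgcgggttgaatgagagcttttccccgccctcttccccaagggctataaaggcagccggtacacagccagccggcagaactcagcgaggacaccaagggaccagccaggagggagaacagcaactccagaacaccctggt
Ltb, chr20:3634005-3634304, minus strand, GRCr8: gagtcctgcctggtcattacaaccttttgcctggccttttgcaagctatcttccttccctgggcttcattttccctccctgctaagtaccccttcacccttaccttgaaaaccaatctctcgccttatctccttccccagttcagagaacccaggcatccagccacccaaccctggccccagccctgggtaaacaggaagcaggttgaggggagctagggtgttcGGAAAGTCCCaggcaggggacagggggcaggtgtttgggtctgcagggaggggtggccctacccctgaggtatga
Fas, chr1:241211905-241212204, plus strand, GRCr8: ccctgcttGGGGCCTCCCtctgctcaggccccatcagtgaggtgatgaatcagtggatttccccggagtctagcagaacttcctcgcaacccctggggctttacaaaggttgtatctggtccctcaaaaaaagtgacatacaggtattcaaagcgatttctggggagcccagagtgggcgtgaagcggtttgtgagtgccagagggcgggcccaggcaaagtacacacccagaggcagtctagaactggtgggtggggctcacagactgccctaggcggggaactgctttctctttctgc
The consensus occurred in 7 of the 30 member promoters, against 7.6% of 27457 promoters of the same length. The 7 were those of Lta, Ltb, Fas, Traf3, Tnfrsf8, Tnfsf14 and Cd70. The window of Tnf held no match but, like that of Lta, a TATAAA element, which 6 of the 30 member promoters and 14.3% of all promoters contained on either strand. Of the 10 members that rose with both fibrils in both cell types, 8 had a promoter sequence and 2, Fas and Ltb, had a κB match in it. These matches describe the letters of a short window in a newer assembly than the rn5 build used for the reads, and no binding was measured.

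In astrocytes, most tested members rose with either fibril, and the rise took in ligands, receptors and adaptors. With Aβ42 fibrils 16 of 26 tested members rose, against 16.5% of all 11690 tested genes, and 2 fell, against 20.4%. With Aβ40 fibrils 15 rose, against 14.9% of all genes, and 2 fell, against 18.4%. By at least 5-fold, 8 members rose with Aβ42 (3.03% of all genes) and 7 with Aβ40 (2.82%). The median log2 fold change of the tested members was 0.94 with Aβ42 and 0.92 with Aβ40 fibrils, beside medians of −0.0047 and 0.0017 over all genes. The fibril comparisons share the control libraries. The called members, 18 and 17, had no overlap between fibril-treated and untreated libraries, which was so for 97.1% and 96.8% of all called genes.

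**Figure D1:**
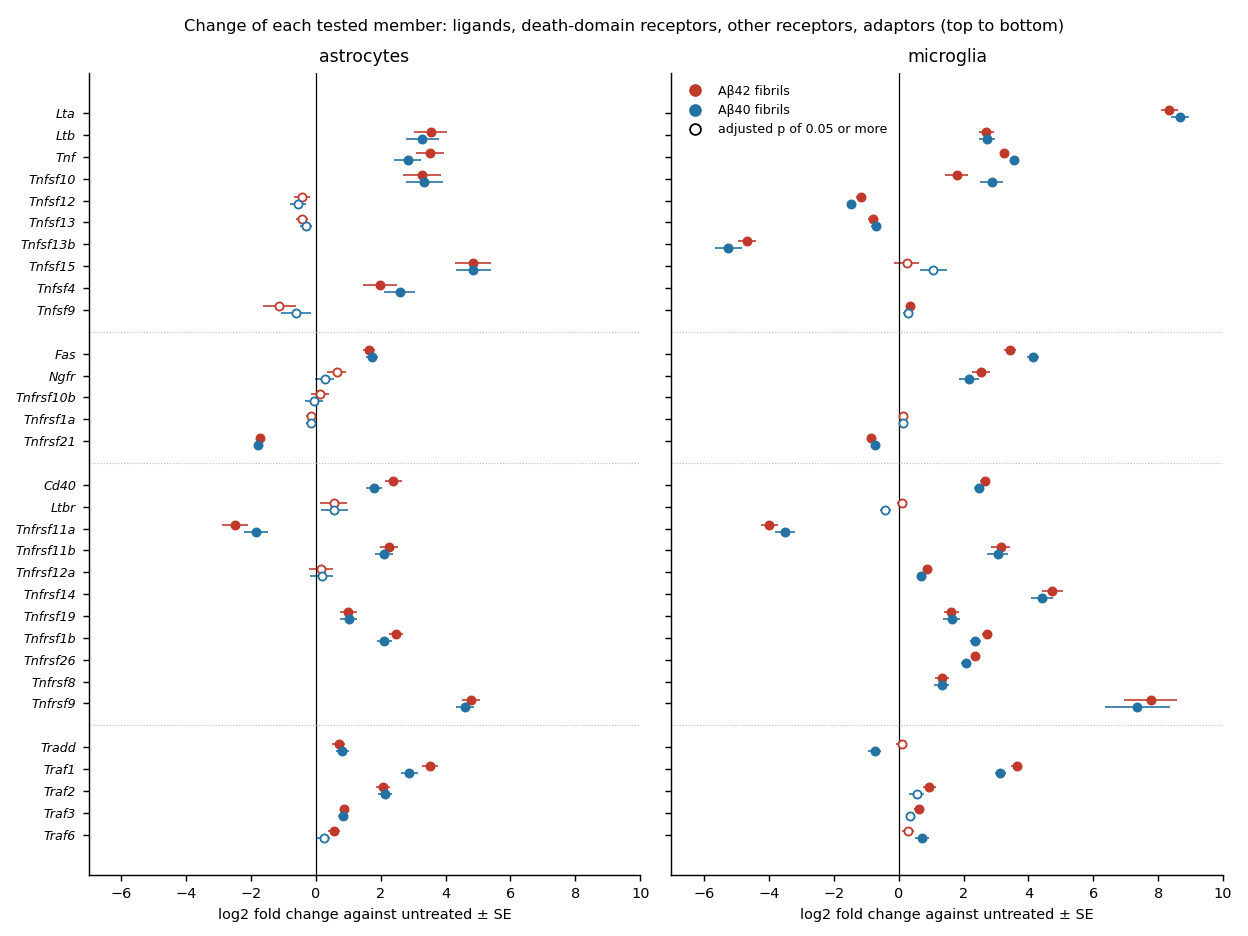
Log2 fold change ± SE of every tested member against untreated cells in astrocytes (left) and microglia (right), with Aβ42 in red and Aβ40 in blue; open symbols have an adjusted p of 0.05 or more, and a missing symbol means that the member was not tested in that cell type. The adaptors at the bottom all lie right of 0 in astrocytes, and Tnfrsf21 and Tnfrsf11a lie left of 0 in both cell types.

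Among the ligands in astrocytes, 5 of 8 tested rose with each fibril and none of the tested ones fell. This split depends on the filter, since Ltb, Tnfsf10 and Tnfsf15 were near 0 in the controls and passed it through the fibril-treated libraries. Tnfsf13b was left untested. On a common scale of all 18 libraries it had means of 1.15 CPM untreated, 0.0985 CPM with Aβ42 and 0.0209 CPM with Aβ40. Without the filter on low counts it was called with both fibrils. Tnf, the cytokine after which the family is named, had 1.11, 0 and 2.25 CPM in untreated libraries, 19.1, 15.97 and 17.2 CPM with Aβ42 and 9.04, 12.8 and 10.2 CPM with Aβ40 fibrils. All fibril-treated libraries were above all controls, at a fitted log2 fold change of 3.53 ± 0.42 (SE, adjusted p = 6.5e-05) for Aβ42 and of 2.83 ± 0.42 for Aβ40 (adjusted p = 0.00039). Ltb, which forms a heterotrimer with Lta and signals through Ltbr, rose from 0, 0 and 0.492 CPM to 4.26, 4.04 and 2.64 CPM and to 2.70, 3.05 and 3.45 CPM, with log2 fold changes of 3.55 ± 0.51 (adjusted p = 0.00026) and 3.28 ± 0.52 (adjusted p = 0.00054). Tnfsf15, a costimulatory ligand of lymphocytes, had 0, 0.239 and 0.0703 CPM untreated, 3.64, 2.33 and 2.64 CPM with Aβ42 and 3.33, 3.26 and 2.39 CPM with Aβ40. Its controls held 2 counts in all, which gives ratios of 32.9 (exact 95% interval of the counts 8.86 to 275) and 32.7 (8.87 to 273), and this interval covers counting error only. Tnfsf10, the death ligand TRAIL, reached a mean of 1.85 and 1.88 CPM from 4 control counts in all, with ratios of 10.1 (3.73 to 38.1) and 11.0 (4.16 to 41.4). Tnfsf12, Tnfsf13 and Tnfsf9 had log2 fold changes between −1.12 and −0.29 with adjusted p = 0.11 to 0.36. Lta stayed at or under 0.664 CPM in every astrocyte library.

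Death-domain receptors in astrocytes went separate ways. Fas, the receptor of Faslg, rose from 61.5, 77.1 and 42.6 CPM to 180, 189 and 188 CPM with Aβ42 and to 205, 204 and 193 CPM with Aβ40, a log2 fold change of 1.63 ± 0.19 (adjusted p = 4.5e-05) and 1.75 ± 0.19 (adjusted p = 3e-05). Tnfrsf21, known as DR6, fell from 46.2, 59.1 and 50.1 CPM to 15.7, 16.3 and 15.7 CPM and to 16.004, 15.4 and 13.9 CPM, a log2 fold change of −1.70 ± 0.14 (adjusted p = 3.9e-06) and −1.78 ± 0.14 (adjusted p = 3.1e-06). The groups did not overlap for either gene. The sum of 7 oligodendrocyte-lineage markers, in whose cells Tnfrsf21 is also known, fell in the same libraries from 1722–2569 CPM to 1267–1369 CPM and 1343–1363 CPM, and its part in the fall of Tnfrsf21 was not tested. Tnfrsf1a, the main receptor of soluble Tnf, was among the most counted members and had 345, 244 and 285 CPM untreated, 287, 255 and 249 CPM with Aβ42 and 232, 295 and 260 CPM with Aβ40. Its groups overlapped, with log2 fold changes of −0.14 ± 0.15 (adjusted p = 0.49) and −0.15 ± 0.15 (adjusted p = 0.48). Ngfr and Tnfrsf10b had adjusted p = 0.10 or more.

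Of the receptors without a death domain, 5 of 8 tested rose in astrocytes and 1 fell with each fibril. Tnfrsf9, also called 4-1BB and best known as a costimulatory receptor of T cells, had 9.74, 3.11 and 5.06 CPM in untreated astrocytes, 173, 155 and 143 CPM with Aβ42 and 130, 146 and 137 CPM with Aβ40 fibrils. This was the member with the smallest p in astrocytes, at a log2 fold change of 4.78 ± 0.28 (adjusted p = 2.9e-07) and 4.59 ± 0.28 (adjusted p = 4.4e-07). Its known ligand Tnfsf9 was not called, at a mean of 1.64 ± 1.3 CPM (SD, n = 3) untreated and 0.789 ± 0.15 CPM with Aβ42. Tnfrsf1b, the other Tnf receptor, rose from 6.96, 5.51 and 11.2 CPM to 46.3, 49.9 and 45.4 CPM and to 35.1, 35.3 and 39.4 CPM, with log2 fold changes of 2.49 ± 0.22 (adjusted p = 6.1e-06) and 2.12 ± 0.22 (adjusted p = 2.2e-05). Cd40 rose from 1.39, 1.20 and 2.11 CPM to 8.10, 8.49 and 11.3 CPM and to 5.92, 6.47 and 5.91 CPM, with log2 fold changes of 2.39 ± 0.25 (adjusted p = 2.4e-05) and 1.80 ± 0.25 (adjusted p = 0.00025). Every fibril-treated library lay above every control for these receptors.

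Tnfrsf11a, known as RANK, and Tnfrsf11b, the secreted decoy osteoprotegerin that binds the same ligand, moved in opposite directions in astrocytes. Tnfrsf11a fell from 6.96, 5.98 and 6.61 CPM to 1.30, 0.505 and 1.68 CPM and to 1.04, 2.78 and 1.33 CPM, with log2 fold changes of −2.48 ± 0.41 (adjusted p = 0.00068) and −1.84 ± 0.37 (adjusted p = 0.0027). Tnfrsf11b rose from 1.95, 6.46 and 3.38 CPM to 18.5, 18.5 and 18.9 CPM and to 16.9, 18.5 and 14.6 CPM, with log2 fold changes of 2.27 ± 0.28 (adjusted p = 7.8e-05) and 2.11 ± 0.28 (adjusted p = 0.00015). The microglial markers fell in the same direction as Tnfrsf11a, which is known from the myeloid lineage, and their part in its fall was not tested. Tnfrsf19 rose with log2 fold changes of 0.998 and 1.02, whereas Ltbr and Tnfrsf12a had log2 fold changes of 0.16 to 0.57 with adjusted p = 0.32 to 0.76 and wide control values because of replicate 2.

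Every one of the 5 tested adaptors rose with Aβ42 in the astrocyte cultures, and 4 of them rose with Aβ40. Traf1, an adaptor whose gene is a well-known target of NF-κB, rose from 1.11, 0.957 and 2.25 CPM to 19.6, 20.5 and 19.3 CPM and to 12.3, 11.98 and 14.1 CPM, with log2 fold changes of 3.52 ± 0.25 (adjusted p = 1.1e-06) and 2.89 ± 0.25 (adjusted p = 6e-06). Traf2, which brings the ubiquitin ligases Birc2 and Birc3 to the receptor, rose from 27.0, 15.3 and 31.3 CPM to 112, 103 and 99.9 CPM and to 103, 109 and 119 CPM, with log2 fold changes of 2.08 ± 0.22 (adjusted p = 2.2e-05) and 2.14 ± 0.22 (adjusted p = 1.9e-05). Traf3 and Tradd rose by 0.71 to 0.88 on the log2 scale, and Traf6 rose with Aβ42 by 0.55 ± 0.19 (adjusted p = 0.041), a call lost under 7 of the alternative settings, among them library totals as the scale and leaving out any one Aβ42 library (adjusted p = 0.070 to 0.14). Between the fibrils, 0 of 26 members differed in astrocytes in either direction, where edgeR called 0.0599% of all genes higher with Aβ42 and 0.0257% higher with Aβ40, and DESeq2 called no member either. An unadjusted p under 0.05 was reached by 3 members, Tnf, Traf1 and Cd40, with log2 differences of 0.69 ± 0.30 (adjusted p = 0.77), 0.63 ± 0.18 (adjusted p = 0.33) and 0.59 ± 0.19 (adjusted p = 0.40). They are among 9 of 26 members whose Aβ42 and Aβ40 libraries did not overlap, where 18.9% of all tested genes did not. With the fibril groups fitted without the controls, 2 were called higher with Aβ42, Tnf (adjusted p = 0.043) and Traf1 (adjusted p = 0.019). That fit called 265 genes in all, against 10 when the controls were included.

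Because microglial RNA was measurable in the astrocyte cultures, the levels of each member in the 2 cell types were set side by side on a common scale of all 18 libraries. With Aβ42 fibrils, the astrocyte level of Tnf was 1.42% of the microglial level, beside 0.881% for Itgam, 0.835% for Ptprc, 0.786% for C1qa and 2.46% for Csf1r. With Aβ40 fibrils it was 0.718%, beside 0.606%, 0.446%, 0.706% and 1.51%. The Tnf share thus lay among those of the microglial markers, and the part of microglial RNA in the rise of Tnf in astrocytes was not tested. In bulk RNA, the number of cells of a type and the RNA per cell cannot be told apart. The shares with Aβ42 were higher for Cd40 (3.82%), Tnfrsf1b (4.58%), Traf1 (6.93%) and Ltb (12.6%), and for Fas, Traf2 and Tnfrsf9 the astrocytes had the higher level, at 239%, 151% and 4292% of that in microglia.

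**Figure D2:**
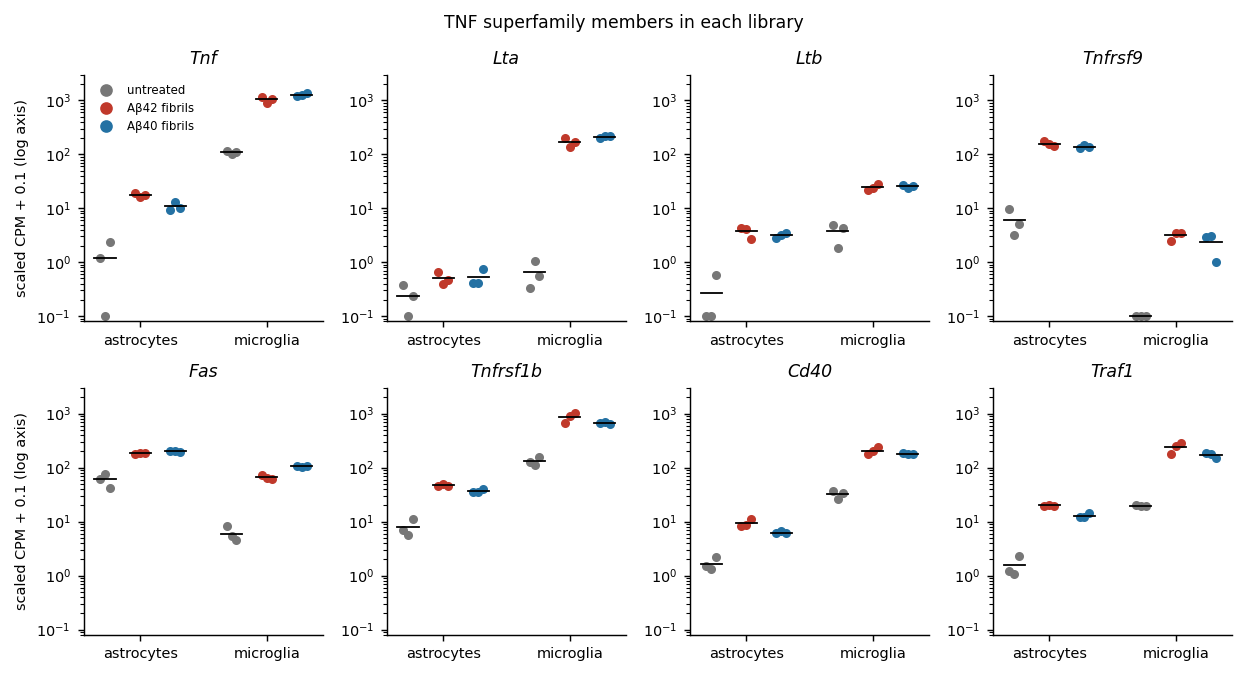
Scaled CPM plus 0.1 on a log axis for 8 members in each of the 18 libraries; points are libraries (grey untreated, red Aβ42, blue Aβ40), bars are means of 3. Tnf and Ltb rise in both cell types, Lta leaves the floor in microglia alone, and Tnfrsf9 reaches above 100 CPM in astrocytes and at most 3.42 CPM in microglia.

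In microglia, 19 of 29 tested members rose with Aβ42 fibrils, against 27.1% of all 10837 tested genes, and 5 fell, against 26.6%. With Aβ40 fibrils 17 rose, against 19.6% of all genes, and 6 fell, against 21.4%. By at least 5-fold, 12 members rose with Aβ42 (3.69% of all genes) and 11 with Aβ40 (3.36%). The median log2 fold changes of 1.34 and 1.32 stood beside 0.0096 and 0.0054 over all genes. The called members, 24 and 23, did not overlap with the untreated libraries, nor did 86.9% and 99% of all called genes.

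Lta, or lymphotoxin alpha, showed the largest of these changes among members with counts in the controls. It had 0.236, 0.966 and 0.458 CPM in untreated microglia, 196, 135 and 172 CPM with Aβ42 and 201, 214 and 215 CPM with Aβ40 fibrils. This is 325-fold (log2 8.34 ± 0.27, adjusted p = 7e-10) and 410-fold (log2 8.68 ± 0.27, adjusted p = 6.7e-10). Its neighbour Tnf was already at 116, 101 and 108 CPM untreated and rose to 1130, 907 and 1073 CPM and to 1188, 1258 and 1353 CPM, with log2 fold changes of 3.25 ± 0.12 and 3.54 ± 0.12 (adjusted p = 1.2e-09 in each). Ltb, the next gene, went from 4.83, 1.74 and 4.27 CPM to 22.0, 23.5 and 27.8 CPM and to 26.3, 23.3 and 26.2 CPM, with log2 fold changes of 2.71 ± 0.24 (adjusted p = 1.5e-06) and 2.73 ± 0.25 (adjusted p = 3e-06). The 3 neighbours therefore rose together in microglia, whereas in astrocytes Tnf and Ltb rose and Lta was too low to test. Tnfsf10 also rose. Tnfsf9 rose with Aβ42 by 0.36 ± 0.13 (adjusted p = 0.032), a call lost under 5 alternatives (adjusted p = 0.053 to 0.15), and with Aβ40 had a log2 fold change of 0.28 ± 0.14 (adjusted p = 0.13).

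The ligands that fell in microglia were Tnfsf13b, Tnfsf12 and Tnfsf13. Tnfsf13b, the B-cell survival factor BAFF, had 12.3, 10.2 and 10.5 CPM untreated, 0.800, 0.390 and 0.399 CPM with Aβ42 and 0.483, 0.224 and 0 CPM with Aβ40. Its log2 fold change was −4.67 ± 0.27 (adjusted p = 3.9e-08) with Aβ42, and with Aβ40, where 3 counts remained in all, the level was 40.2 times lower (exact 95% interval of the counts 13.6 to 196). Tnfsf12, known as TWEAK, fell from a mean of 137 CPM to 62.8 and 49.9 CPM, and Tnfsf13, known as APRIL and the gene next to it, from 65.2 to 38.7 and 39.8 CPM. Adjusted p was at most 0.0028 for both. Since these neighbours lie side by side, reads at their border could be assigned to either. The sum of the microglial markers fell in the same libraries as given above. Of 10 markers, 8 and 9 were called lower and 1 was called higher with each fibril. The part of these markers in the falls of the ligands was not tested.

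Among death-domain receptors in microglia, Fas rose from 8.01, 5.22 and 4.42 CPM to 73.2, 63.7 and 60.5 CPM with Aβ42 and to 109, 100 and 109 CPM with Aβ40, with log2 fold changes of 3.43 ± 0.18 (adjusted p = 1.8e-08) and 4.13 ± 0.18 (adjusted p = 5.4e-09). Ngfr, the neurotrophin receptor p75, rose from a mean of 3.24 CPM to 16.9 and 13.9 CPM (adjusted p = 9.1e-06 and 0.00012). In the same libraries the sum of 7 oligodendrocyte-lineage markers went from 1957–2160 CPM to 2180–2829 and 2202–2660 CPM. Of these 7, 5 and 4 were called higher and 1 was called lower with each fibril. The sum of 6 fibroblast markers went from 59.8–75.1 CPM to 138–165 and 121–128 CPM, but these markers did not all rise. Of 5 tested, 3 were called higher and 1 lower with Aβ42, and 2 higher and 2 lower with Aβ40. Dcn had a mean of 0.427 CPM untreated and 71.1 and 64.6 CPM with the fibrils, whereas Pdgfrb went from 6.04 CPM to 2.54 CPM with each fibril. The part of both marker lists in the rises of Ngfr and of the other microglial members was not tested. Tnfrsf21 fell here too, with log2 fold changes of −0.84 ± 0.12 (adjusted p = 9.4e-05) and −0.72 ± 0.13 (adjusted p = 0.00066). Tnfrsf1a had 205 to 234 CPM untreated and 225 to 268 CPM with a fibril, with overlapping groups and log2 fold changes of 0.12 ± 0.10 (adjusted p = 0.32) and 0.14 ± 0.10 (adjusted p = 0.29).

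Of 11 tested receptors without a death domain, 9 rose in microglia and 1 fell with each fibril. Tnfrsf1b rose from 125, 113 and 156 CPM to 679, 889 and 1035 CPM with Aβ42 and to 682, 693 and 649.5 CPM with Aβ40, with log2 fold changes of 2.73 ± 0.16 (adjusted p = 5.4e-08) and 2.36 ± 0.16 (adjusted p = 2.2e-07). The pair of Tnf receptors thus differed in both cell types, where Tnfrsf1b passed the test with each fibril and Tnfrsf1a passed it with neither. Tnfrsf14, the receptor HVEM, rose from 2.71, 1.35 and 3.20 CPM to 46.0, 56.9 and 93.8 CPM and to 61.8, 56.4 and 41.4 CPM, with log2 fold changes of 4.74 ± 0.33 (adjusted p = 2.1e-07) and 4.42 ± 0.34 (adjusted p = 6.4e-07). Cd40 rose from 37.3, 26.3 and 33.4 CPM to 179, 202 and 236 CPM and to 187, 180 and 177 CPM, with log2 fold changes of 2.67 ± 0.15 (adjusted p = 2.2e-08) and 2.48 ± 0.15 (adjusted p = 5.7e-08), while its ligand Cd40lg had no count in microglia.

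Tnfrsf26 is a rodent receptor that lacks a death domain. It rose from 11.0, 9.08 and 9.46 CPM to 51.2, 47.4 and 53.5 CPM and to 42.7, 38.0 and 45.0 CPM, with log2 fold changes of 2.35 ± 0.13 (adjusted p = 3.1e-08) and 2.07 ± 0.14 (adjusted p = 1.7e-07). Tnfrsf9 had no count in untreated microglia and 2.40, 3.42 and 3.42 CPM with Aβ42 and 2.90, 2.91 and 0.919 CPM with Aβ40, which is at least 6.65-fold and 4.83-fold higher when 3 counts per control library are taken as the limit. The value of 0.919 CPM, in Aβ40 replicate 3, was itself under the limit of that library, where 3 counts stood for 1.38 CPM. Tnfrsf8 and Tnfrsf12a rose by 0.70 to 1.34 on the log2 scale, and Tnfrsf19 by 1.62 and 1.64.

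The RANK and osteoprotegerin pair showed the same split in microglia as in astrocytes. Tnfrsf11a fell from 35.6, 28.2 and 41.2 CPM to 2.00, 2.43 and 2.00 CPM and to 1.45, 3.13 and 5.98 CPM, with log2 fold changes of −3.98 ± 0.26 (adjusted p = 1.3e-07) and −3.49 ± 0.31 (adjusted p = 1.9e-06). Tnfrsf11b rose from 0.825, 1.93 and 1.07 CPM to 11.6, 11.6 and 9.52 CPM and to 12.3, 7.60 and 10.6 CPM, with log2 fold changes of 3.15 ± 0.29 (adjusted p = 2.5e-06) and 3.06 ± 0.33 (adjusted p = 1e-05). All treated libraries lay on the same side of the controls.

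The adaptors moved less uniformly in microglia. Traf1 rose from 20.4, 19.1 and 18.9 CPM to 180, 254 and 290 CPM with Aβ42 and to 184, 177 and 152 CPM with Aβ40, with log2 fold changes of 3.64 ± 0.18 (adjusted p = 7.6e-09) and 3.14 ± 0.18 (adjusted p = 3.5e-08). Traf2 and Traf3 rose with Aβ42 by 0.95 ± 0.21 (adjusted p = 0.0024) and 0.62 ± 0.14 (adjusted p = 0.0032), and with Aβ40 had log2 fold changes of 0.55 ± 0.22 (adjusted p = 0.063) and 0.36 ± 0.15 (adjusted p = 0.070). Traf6 rose with Aβ40 by 0.72 ± 0.20 (adjusted p = 0.013), a call lost without control replicate 1 (adjusted p = 0.050). Tradd, the adaptor of Tnfrsf1a, had 23.7, 17.6 and 21.8 CPM untreated, 16.4, 24.0 and 24.6 CPM with Aβ42 and 12.3, 14.5 and 10.6 CPM with Aβ40, and fell with Aβ40 by 0.73 ± 0.20 on the log2 scale (adjusted p = 0.011).

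Between the fibrils in microglia, 2 members were higher with Aβ42, Tradd and Traf1, where 11.3% of all genes were, and 2 were higher with Aβ40, Fas and Tnfsf10, where 9.01% were. For Fas, the Aβ42 libraries (60.5 to 73.2 CPM) lay below the Aβ40 libraries (100 to 109 CPM), with a log2 difference of −0.70 ± 0.15 (adjusted p = 0.017). For Tnfsf10 they had 2.80, 2.56 and 2.22 CPM against 4.58, 4.70 and 6.89 CPM, with a log2 difference of −1.08 ± 0.27 (adjusted p = 0.026). Tradd was higher by 0.83 ± 0.20 (adjusted p = 0.022) and Traf1 by 0.50 ± 0.15 (adjusted p = 0.041), and for Traf1 Aβ42 replicate 1 lay inside the Aβ40 range. This comparison turned on that library. Without it, 16 of 29 members differed, 10 higher with Aβ42 and 6 higher with Aβ40, all 4 above among them. In all, 6004 genes differed, where the fit with every library tested 10837, so the members did not stand out from the other genes. When any one of the other 5 fibril-treated libraries was left out instead, 0 members passed edgeR's test, 6 or 7 had an unadjusted p under 0.05, and at most 154 genes were called. Members called without replicate 1 included Tnfsf15 (log2 difference −1.31, adjusted p = 2.2e-05), Ltbr (0.70, adjusted p = 7.5e-06), Traf6 (−0.63, adjusted p = 0.0012) and Tnfrsf1b (0.51, adjusted p = 0.0012). For these genes replicate 1 had 23.6, 69.6, 31.6 and 679 CPM, against Aβ42 values of 5.98 and 7.64, 119 and 122, 17.2 and 21.3, and 889 and 1035 CPM in the other 2 libraries. The depth of the libraries differed in the same way, at 2613723 counts in replicate 1 and 2271834 to 4425805 in the Aβ40 libraries, and its part in the result was not tested.

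**Figure D3:**
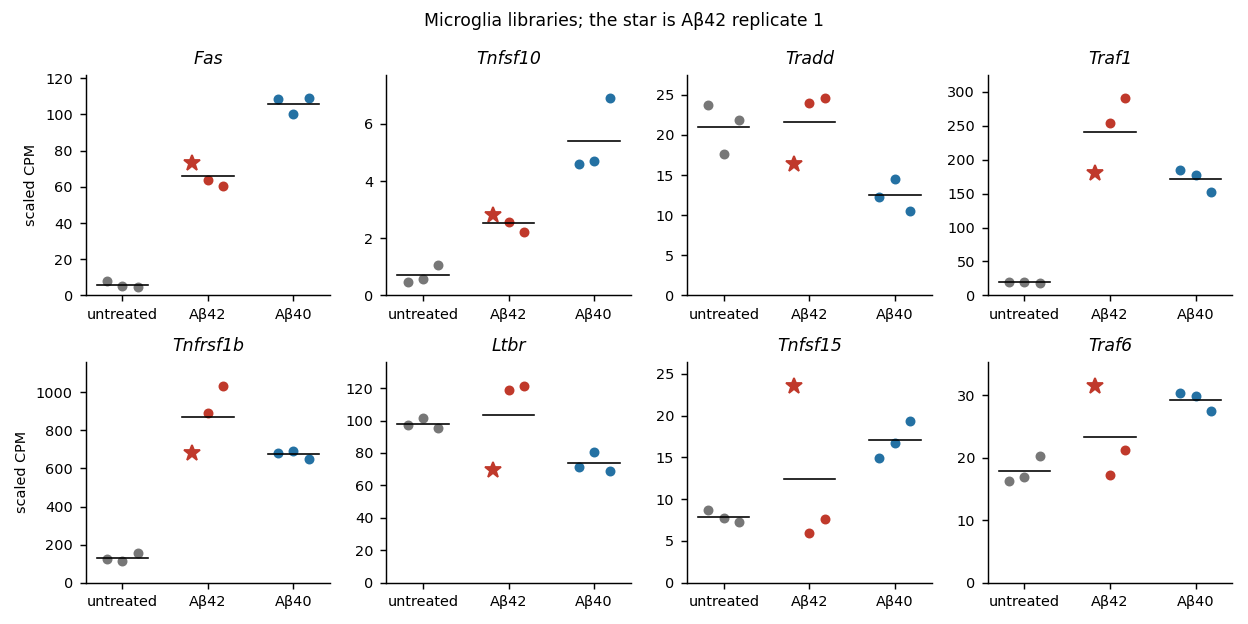
Scaled CPM of 8 members in the 9 microglia libraries, on linear axes from 0; points are libraries, bars are means of 3, and the star is Aβ42 replicate 1. The star sits with the other Aβ42 libraries for Fas and Tnfsf10, and with or beyond the Aβ40 libraries for Traf1, Tnfrsf1b, Ltbr, Tnfsf15 and Traf6.

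The responses of the 2 cell types were compared as the difference between their log2 fold changes in a fit of all 18 libraries, which tested 31 members. With Aβ42 fibrils, 4 members had the higher log2 fold change in astrocytes (17.9% of all genes) and 5 in microglia (19.3%). With Aβ40 fibrils these were 6 (16.5%) and 5 (16%). The shares of members were near those over all genes. For a member that fell in both cell types, the higher log2 fold change is the smaller fall. Fas rose in both, by 1.80 ± 0.27 more in microglia with Aβ42 (adjusted p = 4.5e-05) and by 2.37 ± 0.28 more with Aβ40 (adjusted p = 2.1e-06). Traf2 rose more in astrocytes, by 1.13 ± 0.32 (adjusted p = 0.0087) and 1.60 ± 0.32 (adjusted p = 0.00083). Tnfrsf21 fell further in astrocytes with both fibrils. Tnfrsf11a fell further in microglia, a call lost under 8 alternatives with Aβ42 (adjusted p up to 0.13) and 3 with Aβ40 (up to 0.17). For Tnf, Tnfrsf1b, Cd40, Traf1 and Ltb the difference of the responses did not pass the test, with adjusted p = 0.11 to 0.82, and for Tnf it was 0.25 ± 0.38 and −0.72 ± 0.41. For Tnf and Ltb this turned on single astrocyte controls. Without replicate 2, the Tnf difference with Aβ40 was −1.07 (adjusted p = 0.0070), and without replicate 3 the Tnf difference with Aβ42 was 1.79 (adjusted p = 0.023) and that of Ltb, whose other controls held no count, was called too (adjusted p = 0.040). Cd40 was called with Aβ40 (−0.82, adjusted p = 0.047) only with control replicate 2 and Aβ42 replicate 3 both left out, a setting chosen after seeing the data. Without control replicate 2, differences were also called for Tnfrsf12a (−1.10 with Aβ42, −0.88 with Aβ40) and Tnfsf13 (0.61, 0.65), for Tnfrsf19 with Aβ42 (−0.87) and for Tnfsf9 with Aβ40 (−1.16).

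For Tnfsf4, Tradd and Tnfsf9 the fitted changes had opposite signs in the 2 cell types and the difference of the responses passed the test, but Tradd with Aβ40 was the one case called within both. Tnfsf4, known as OX40L, had 0, 0.239 and 0.492 CPM in untreated astrocytes, 1.17, 1.21 and 2.04 CPM with Aβ42 and 1.77, 2.35 and 2.32 CPM with Aβ40. In microglia it had 1.06, 2.70 and 0.915 CPM untreated, 0, 0.346 and 0.0570 CPM with Aβ42 and 0.241, 0 and 1.38 CPM with Aβ40, levels near the detection limit, and the difference of the responses was called with both fibrils (adjusted p = 0.00064 and 0.0025). Tradd had 17.0, 9.57 and 17.7 CPM in untreated astrocytes, 24.1, 25.1 and 24.7 CPM with Aβ42 and 25.6, 25.4 and 28.7 CPM with Aβ40, so that it rose there while it fell in microglia with Aβ40, a difference of 1.57 ± 0.29 (adjusted p = 0.00038). Tnfsf9 had 23.6, 24.1 and 25.2 CPM in untreated microglia, 32.4, 27.9 and 33.9 CPM with Aβ42 and 31.6, 30.4 and 25.3 CPM with Aβ40. In astrocytes it had 2.78, 0.239 and 1.90 CPM untreated, 0.618, 0.910 and 0.841 CPM with Aβ42 and 0.935, 1.39 and 0.930 CPM with Aβ40, some of them near the detection limit. The Aβ42 responses of Tnfsf9 differed by −1.49 ± 0.46 (adjusted p = 0.015), a call lost under 2 alternatives (adjusted p = 0.062 to 0.13). Tnfsf15 rose in astrocytes, and in microglia it had 7.32 to 8.72 CPM untreated and log2 fold changes of 0.24 ± 0.40 with Aβ42 (adjusted p = 0.63) and 1.07 ± 0.41 with Aβ40 (adjusted p = 0.053), the first being −0.25 without Aβ42 replicate 1.

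**Figure D4:**
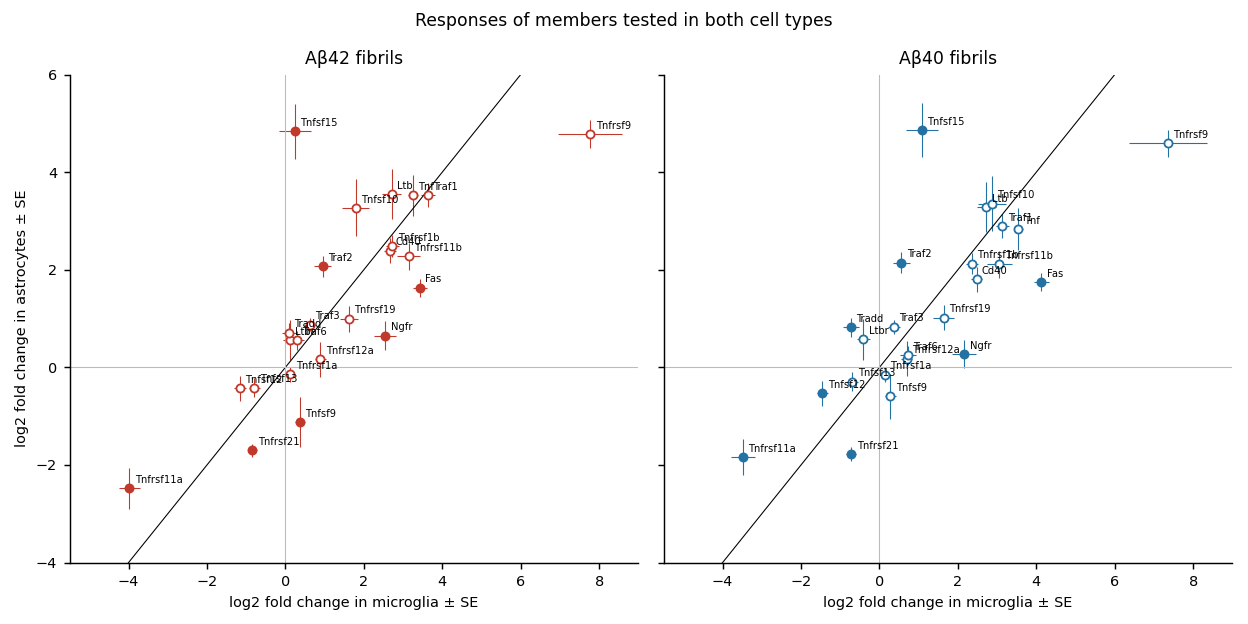
Log2 fold change ± SE in astrocytes (vertical) against that in microglia (horizontal) for members tested within both cell types, with Aβ42 fibrils (left) and Aβ40 fibrils (right); filled symbols have a response that differs between the cell types at an adjusted p under 0.05, and the black line marks equal change. Fas lies right of the line and Traf2 and Tnfsf15 lie above it with both fibrils.

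In untreated cultures the members differed in level between the cell types. Of 31 tested, 20 were higher in microglia, against 34.2% of all 11581 tested genes, and 7 were higher in astrocytes, against 34.5%. All 10 tested ligands were higher in microglia, although Lta lost this call under 5 alternatives (adjusted p up to 0.18) and Tnfsf10 and Tnfsf4 under 1 each (adjusted p = 0.069 and 0.059). These counts depend on the filter. Lta, Tnfsf13b, Tnfrsf14, Tnfrsf26 and Tnfrsf8, untested within astrocytes, passed it through the microglial libraries and were all higher in microglia. Tnfrsf10b and Tnfsf4, untested within microglia, passed it through the astrocyte libraries, and of these Tnfrsf10b was higher in astrocytes. On the common scale, Tnf had a mean of 120 ± 8.1 CPM (SD, n = 3) in untreated microglia and 1.04 ± 1.0 CPM in untreated astrocytes, a log2 difference of −6.39 ± 0.30 (adjusted p = 6.2e-13). Cd40 (35.9 against 1.46 CPM), Tnfrsf1b (146 against 7.35 CPM) and Traf1 (21.6 against 1.34 CPM), which rose with fibrils in both cell types, were also higher in microglia. The members higher in astrocytes were Fas (56.5 against 6.54 CPM), Tnfrsf9 (5.59 against 0 CPM), Tnfrsf19, Tnfrsf10b, Tnfrsf12a, Tnfrsf11b and Traf3, all of them receptors but for Traf3. Tnfrsf1a, Tnfrsf21, Ltbr and Ngfr did not pass the test, with adjusted p = 0.27 to 0.74, and for Tnfrsf1a the log2 difference was 0.15 ± 0.12 (adjusted p = 0.28). Scaling by library totals moved the median of all genes by 0.28 (log2) toward astrocytes and left all 7 of these members higher there, with Tnfrsf1a called as well, while Lta and Traf2 were no longer called higher in microglia.

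**Figure D5:**
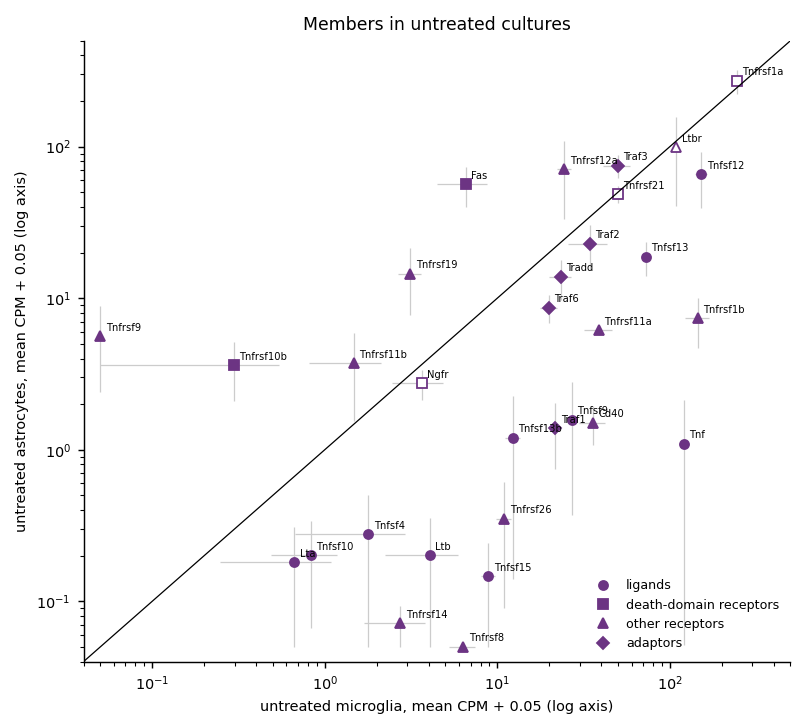
Mean CPM plus 0.05 of each member in untreated astrocytes against untreated microglia, on log axes and a common scale, with SD over 3 libraries as grey bars; the line marks equal levels, and open symbols have an adjusted p of 0.05 or more. The 10 ligands (circles) all lie below the line, and Fas, Tnfrsf9, Tnfrsf10b and Tnfrsf19 lie above it.

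Of 39 other genes of TNF receptor signalling, 32 were tested in astrocytes and 31 in microglia. In astrocytes 18 rose and 2 fell with Aβ42 and 16 rose and 2 fell with Aβ40 fibrils, with median log2 fold changes of 0.60 and 0.55, beside −0.0047 and 0.0017 over all genes, of which 16.5% and 14.9% rose and 20.4% and 18.4% fell. In microglia 13 rose and 9 fell with Aβ42 and 13 rose and 8 fell with Aβ40, with medians of 0.16 and 0.12, beside 0.0096 and 0.0054 over all genes, of which 27.1% and 19.6% rose and 26.6% and 21.4% fell. Birc3, a ubiquitin ligase of the receptor complex and itself a target of NF-κB, rose in astrocytes by 5.32 ± 0.25 and 5.28 ± 0.25 and in microglia by 3.90 ± 0.14 and 3.98 ± 0.14 on the log2 scale (adjusted p at most 6.6e-08). Nfkbia, the NF-κB inhibitor, rose by 2.42 to 2.65 in the 4 comparisons, and Cflar, which restrains caspase-8, by 1.45 ± 0.18 and 1.33 ± 0.18 in astrocytes and by 3.29 ± 0.22 and 3.77 ± 0.22 in microglia. Adam17, which sheds Tnf, rose in astrocytes by 1.02 ± 0.12 (adjusted p = 7.2e-05) and 0.64 ± 0.12 (adjusted p = 0.0021) and fell in microglia by 0.79 ± 0.11 (adjusted p = 6.6e-05) and 0.55 ± 0.11 (adjusted p = 0.0013). Rela, the p65 subunit, rose in astrocytes by 1.31 and 1.30 and fell in microglia by 0.40 and 0.50.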

How the data were processed

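The authors aligned the reads to the rat build rn5 with STAR and deposited whole-number counts per gene symbol for each of 18 libraries, and the submitters' processing notes also name Salmon and DESeq2, with versions and the strand setting of the counting not given in the sources used here. Rows for ambiguous reads and for reads outside genes, 21.7% to 34.2% of a library, were left out. The counts as deposited were scaled by TMM, filtered with filterByExpr by group and tested with edgeR 4.0.16 (quasi-likelihood, R 4.3.3) within each cell type, and over all 18 libraries on 16704 shared symbols for the comparisons between cell types. Adjusted p is Benjamini-Hochberg over all tested genes, and a member was called at an adjusted p under 0.05. The fits were tested on simulated data. Alternatives were DESeq2 1.42.0, other scalings and filters, the replicate number as a block, fits of the compared groups alone and leaving out each library. The members, pathway list and marker lists were chosen with earlier results of these data known. Values of every library are given for members called at 2-fold or more against untreated cells (the 12 with the smallest p per cell type), called between fibrils at 1.5-fold or more, or called with opposite directions in the cell types. Those of Tnfrsf1a and of other members outside this rule were added after their values were seen. The pathway list was planned to be described by counts and medians only, and the fold changes of single genes from it were also added afterwards. Promoter sequences are from RefSeq, GRCr8. No pair of libraries agreed within counting noise.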

Additional observations from a re-analysis of the deposited data

Results flagged for a closer look

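The difference between the responses of astrocytes and microglia passed the test for the members below, given as the log2 fold change in astrocytes minus that in microglia. With Aβ42 fibrils it was −1.80 for Fas, −6.80 for Lta, −1.86 for Ngfr, −0.85 for Tnfrsf21 and −1.49 for Tnfsf9. It was 1.502 for Tnfrsf11a, 4.48 for Tnfsf15, 4.73 for Tnfsf4 and 1.13 for Traf2. With Aβ40 fibrils it was −2.37 for Fas, −7.08 for Lta, −1.86 for Ngfr, −1.04 for Tnfrsf21 and −1.95 for Tnfrsf26. It was 1.66 for Tnfrsf11a, 0.94 for Tnfsf12, 3.77 for Tnfsf15, 4.52 for Tnfsf4, 1.57 for Tradd and 1.60 for Traf2. Lta, Tnfsf15, Tnfsf4 and Tnfrsf26 were near 0 in at least 1 group of libraries, so that the size of their fitted values depends on the prior count. Besides those of Tnfrsf11a, some of these calls were lost under alternatives. With Aβ40 they were Tnfrsf26 under 1 (adjusted p = 0.43), Tnfsf15 under 1 (adjusted p = 0.087) and Tnfsf12 under 3 (adjusted p up to 0.068). With Aβ42 it was Tnfsf9 under 2 (adjusted p up to 0.13). Groups of 3 libraries were too small for a test of single outlying libraries.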

How the results depend on the processing

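No called value of a member turned its direction under the alternatives run. Of 133 called values over all comparisons 19 lost their call somewhere, 5 of them among the 82 against untreated cells, which were Tnfsf9 with Aβ42 in microglia and Tradd and Traf6, each with Aβ42 in astrocytes and with Aβ40 in microglia. An uncalled value, that of Tnfsf15 with Aβ42 in microglia, went from 0.24 to −0.25 without Aβ42 replicate 1. Requiring 10 counts in every library, which tested fewer members, left 8 that rose and 1 that fell with Aβ42 in astrocytes, 7 and 1 with Aβ40, 3 that fell with Aβ42 and 11 that rose with Aβ40 in microglia, 4 and 6 responses that differed between the cell types, and 4 members higher in untreated astrocytes and 5 in untreated microglia. With that filter, genes called against untreated cells went from 4321 to 3479 and from 3888 to 3076 in astrocytes, and from 5820 to 4907 and from 4445 to 3749 in microglia. Requiring a 5-fold change left 8 and 7 that rose and 1 and 0 that fell in astrocytes, 12 and 11 that rose and 2 and 2 that fell in microglia, 0 that differed between fibrils in microglia, 3 and 4 responses that differed, and 3 and 12 members in untreated cells. Over all genes, 3.03% and 2.82% rose by at least 5-fold in astrocytes and 3.69% and 3.36% in microglia. Fitting the compared groups alone gave 2 members that differed between fibrils in astrocytes, among 265 genes, and 1 in microglia, among 106 genes. Leaving out each library in turn gave 2 to 4 that fell in astrocytes with Aβ42 and 2 to 4 with Aβ40. The 4 were reached without control replicate 2, where Tnfsf13b and Tnfsf9 were added, and, with Aβ42, without control replicate 3, where Tnfsf13 and Tnfsf12 were added. With control replicate 2 and Aβ42 replicate 3 both left out, a setting chosen after seeing the data, 4 fell with Aβ42. Members that differed between fibrils in microglia ranged from 0 to 16, the 16 without Aβ42 replicate 1, where 6004 genes differed in all. The cause was not tested. The deviations of same-numbered libraries had correlations of −0.64 to 0.44 (astrocytes) and −0.22 to 0.26 (microglia), so the numbers were not taken to pair them. With the number as a replicate block, 1 member differed between fibrils in microglia, and genes called there went from 2198 to 752. Leaving out libraries was not run for the marker sums, whose ranges cover every library. Depth limited members under about 1 CPM, where 3 counts stood for up to 1.38 CPM.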
